A study of Mus musculus with 2 samples.

Results

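The Mir199 and Mir214 genes were examined in microRNA sequencing of the mouse embryonic facial prominence, the tissue that builds the face and jaws. The 4 genes, Mir199a-1, Mir199a-2, Mir199b and Mir214, were taken by symbol from GENCODE, matched through their Ensembl identifiers, and make up 4 of the 1973 miRNA genes counted. The tissue came from healthy B6NCrl embryos at embryonic day 15.5, with both sexes pooled. The libraries were 2 biological replicates of 1 group, with 62 embryos pooled for replicate 2 and 78 embryos pooled for replicate 1. The labels name no treatment or mutation, so the design allows levels within each library and a comparison of replicate 2 with replicate 1. Spread between the pools covers the embryos, dissection, library preparation and sequencing together.

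A miRNA gene is transcribed as a longer RNA from which a hairpin is cut, and each arm of the hairpin can yield a mature miRNA of about the length of 1 sequencing read. The mature miRNA guides the silencing complex to messenger RNAs that pair with its seed, the bases near its 5′ end. In the mouse, Mir199a-2 and Mir214 are cut from Dnm3os, a long noncoding RNA transcribed from the strand opposite the dynamin gene Dnm3, and the transcription factor Twist1 is known to drive this RNA in mesenchyme. Mice that lack Dnm3os are known for defects of the skeleton, the facial skeleton among them. Dynamins pinch vesicles off membranes, and the other Mir199 genes lie in the paralogous dynamin genes.

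All 4 hairpins lie within dynamin genes, on the strand opposite the dynamin. On the mm10 build, Mir199a-2 (ENSMUSG00000070126) occupies chr1:162217814-162217923 and Mir214 (ENSMUSG00000065516) chr1:162223368-162223477, both on the plus strand. They are 5444 bases apart, each within an annotated exon of Dnm3os and opposite an intron of Dnm3. Mir199a-1 (ENSMUSG00000065547) lies on the minus strand at chr9:21496495-21496564, opposite an intron of Dnm2. Mir199b (ENSMUSG00000092807) lies on the plus strand at chr2:32318460-32318569, opposite an intron of Dnm1. The hairpin of Mir199a-1 is annotated with 70 bases and the other 3 hairpins with 110 bases each. One further counted gene lies within 10 kb of them, Gm23363, which ends 116 bases before Mir199b and had 2 reads in replicate 2 and 2 reads in replicate 1.

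The mature sequences decide which reads can be counted for each gene, so they are shown here from RefSeq (GRCm38.p6), 5′ to 3′, with the seed (bases 2 to 8) in capitals.
miR-199a-5p (Mir199a-1 and Mir199a-2): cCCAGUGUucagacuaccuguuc
miR-199a-3p and miR-199b-3p (Mir199a-1, Mir199a-2 and Mir199b): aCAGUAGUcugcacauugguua
miR-214-5p (Mir214): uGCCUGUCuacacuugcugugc
miR-214-3p (Mir214): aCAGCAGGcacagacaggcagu

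The 3p sequence of the Mir199 genes is letter for letter the same in all 3 hairpins, and miR-199a-5p is the same in 2 of them. The seed CAGUAGU is therefore encoded on chromosomes 1, 2 and 9, while each seed of Mir214 comes from 1 member. For Mir199b the RefSeq table used here names only the 3p sequence, but its hairpin holds a 23-base stretch close to miR-199a-5p, at chr2:32318485-32318507 on the plus strand. That stretch differs from miR-199a-5p by 1 base, C10U (miR-199a-5p first, positions counted from its 5′ end), which lies outside the seed. It is printed with the differing base in capitals.
Mir199b 5p stretch: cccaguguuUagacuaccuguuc

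The whole hairpins, from RefSeq with the named mature sequences in capitals, show where the genes part from each other.
Mir199a-1: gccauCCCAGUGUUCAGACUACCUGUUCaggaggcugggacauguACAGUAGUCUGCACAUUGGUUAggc
Mir199a-2: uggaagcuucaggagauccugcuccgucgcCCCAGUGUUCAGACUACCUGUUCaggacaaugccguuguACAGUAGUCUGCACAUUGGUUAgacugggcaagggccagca
Mir199b: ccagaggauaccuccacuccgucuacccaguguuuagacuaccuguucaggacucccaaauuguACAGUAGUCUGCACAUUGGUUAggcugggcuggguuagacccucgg
Mir214: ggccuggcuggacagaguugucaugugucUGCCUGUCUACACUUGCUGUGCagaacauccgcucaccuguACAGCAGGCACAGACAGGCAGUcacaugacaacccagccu

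Every mature sequence that RefSeq names for the Mir199 genes lies inside a stretch held by another Mir199 hairpin. Mir199a-1 and Mir199a-2 share 27 bases in a row that begin at the first base of miR-199a-5p. Around the 3p arm, Mir199b shares 28 bases in a row with Mir199a-1 and 27 with Mir199a-2. The longest run that Mir214 shares with any of the 3 is 7 bases. Cut into windows of 22 bases and searched in 2202 GENCODE miRNA hairpins, Mir199a-1 had 13 of 49 windows in another hairpin, Mir199a-2 had 12 of 89, Mir199b had 8 of 89 and Mir214 had 0 of 89. Among all 916 counted genes with a mature sequence in the table, 47 (5.13%) had every mature sequence in another hairpin. Among the 297 of these with at least 10 reads in both libraries, 7 (2.36%) did. That minimum is itself set on reads placed at 1 locus. The Mir199 genes were 3 of those 7, Mir199b by the 1 sequence that the table names for it.

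**Figure D1:**
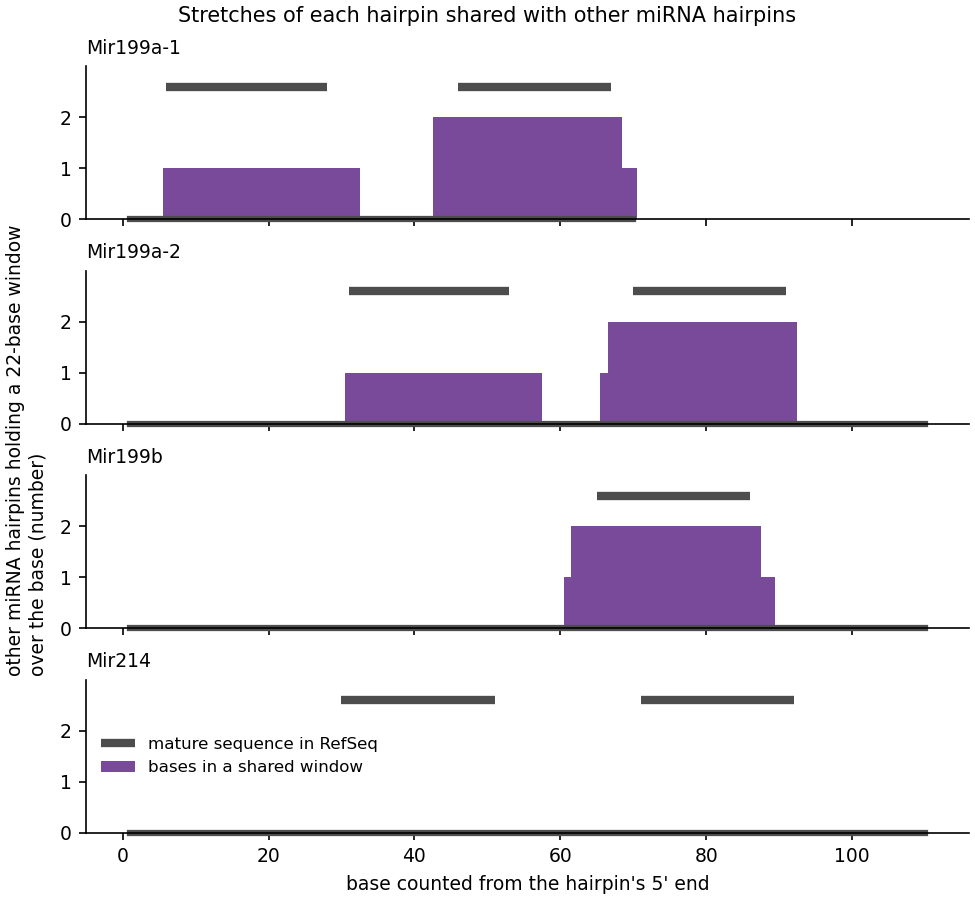
Sharing along each hairpin: the x axis is the base counted from the 5′ end, the y axis the number of other miRNA hairpins that hold a 22-base window over that base, the grey bars mark mature sequences named in RefSeq, and the dark line at 0 the length of the hairpin. The shaded blocks cover both mature sequences of Mir199a-1 and Mir199a-2 and the 3p sequence of Mir199b, while Mir214 has no shaded base.

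This sharing bears directly on the counts, because the deposited tables set reads that mapped to several places aside in a line of their own. A read that lies wholly inside a shared stretch matches more than 1 Mir199 gene exactly. The values of the 3 Mir199 genes are therefore uncertain and hold only for reads placed at a single locus. The set-aside line held 4186211 reads in replicate 2 and 1789456 in replicate 1, which is 39.6 times the reads of the 4 genes together in replicate 2 and 33.1 times in replicate 1. How many of these came from Mir199 genes is not recorded in the tables. The counts are per hairpin, so 5p and 3p arms cannot be told apart either.

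Mir214 was by far the most abundant of the 4 genes and the Mir199 genes followed at much lower levels in reads placed at 1 locus. Levels are given as CPM, which are counts per 1e6 reads assigned to miRNA genes, after scaling between the libraries. The libraries had 6408008 assigned reads in replicate 2 and 2978463 in replicate 1, so 1 read was worth 0.157 CPM in replicate 2 and 0.335 CPM in replicate 1. All levels depend on this denominator, and with the set-aside reads added to it the mean of Mir214, for example, was 9828 CPM in place of 15973 CPM. The libraries hold small RNAs rather than fragments of long ones, so genes are compared by reads. Per base of hairpin length, Mir214 made up 92.1% of the 4 genes' level. This share could hardly move, because only Mir199a-1, with the fewest reads, has a hairpin of another length. Reads mapped to several places are not in it.

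Mir214, whose 3p miRNA is known as a brake on bone formation by osteoblasts in mice, had 96380 reads or 15093 CPM in replicate 2, against 50369 reads or 16852 CPM in replicate 1. Its mean was 15973 ± 1244 CPM (SD, n = 2). It ranked 17th of all counted genes in replicate 2 and 15th in replicate 1. It took 1.504% of assigned reads in replicate 2 (95% Clopper-Pearson interval 1.49 to 1.51) and 1.69% in replicate 1 (1.68 to 1.71). These intervals and all others given here reflect counting error alone, because the labels name no molecular identifiers and PCR copies of 1 molecule may be counted more than once.

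Its neighbour on the Dnm3os transcript, Mir199a-2, had 1375 reads or 215 CPM in replicate 2, against 560 reads or 187 CPM in replicate 1. The mean was 201 ± 19.8 CPM (SD, n = 2), and the gene ranked 156th in replicate 2 and 165th in replicate 1. The level of Mir199a-2 thus lay close to 180 CPM, the median over the 333 genes that had at least 10 reads in both libraries.

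Mir199b, in the Dnm1 locus, was the highest of the Mir199 genes. It had 7952 reads or 1245 CPM in replicate 2, against 3083 reads or 1031 CPM in replicate 1, with a mean of 1138 ± 151 CPM (SD, n = 2). The ranks were 96th in replicate 2 and 101st in replicate 1. Mir199b is also the Mir199 gene whose 5p stretch is not found in another hairpin. Whether its reads came from that stretch is not recorded, and a link to its level was not tested.

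Mir199a-1, in the Dnm2 locus, had 111 reads or 17.4 CPM in replicate 2, against 41 reads or 13.7 CPM in replicate 1. The mean of 15.6 ± 2.59 CPM (SD, n = 2) was the lowest of the 4 genes. Both libraries were above the level of 3 reads, which is 0.470 CPM in replicate 2 and 1.00 CPM in replicate 1. The order Mir214, Mir199b, Mir199a-2, Mir199a-1 was the same in both libraries, and each gap between neighbours in it was larger than the SD of either gene.

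**Figure D2:**
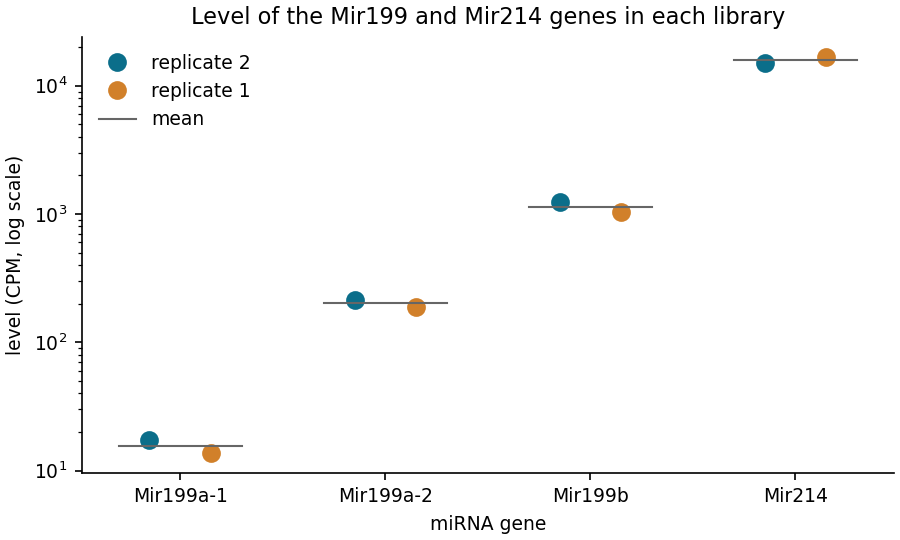
Level of each gene in CPM on a log axis, with 1 point for each library (replicate 2 left, replicate 1 right) and a line at the mean. The points of a gene lie close together compared with the steps between genes, from 15.6 CPM for Mir199a-1 to 15973 CPM for Mir214.

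Together the 4 genes had 105818 reads in replicate 2 and 54053 in replicate 1. This was 1.65% of assigned reads in replicate 2 (1.64 to 1.66) and 1.81% in replicate 1 (1.80 to 1.83). Mir214 supplied 91.1% of the 4 genes' reads in replicate 2 (90.9 to 91.3) and 93.2% in replicate 1 (93.0 to 93.4). Among the 3 Mir199 genes alone, Mir199b supplied 84.3% in replicate 2 (83.5 to 85.0) and 83.7% in replicate 1 (82.5 to 84.9), and Mir199a-2 supplied 14.6% in replicate 2 (13.9 to 15.3) and 15.2% in replicate 1 (14.1 to 16.4). The intervals of the pools overlapped for the division of reads among the Mir199 genes, and did not overlap for the share of Mir214.

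Nearly all of these reads lay on the strand of the hairpin. The column for the opposite strand held 0 reads in replicate 2 and 1 read in replicate 1 for Mir214, and 0 reads in both libraries for each Mir199 gene. All 4 hairpins stand opposite a dynamin gene, and reads from the dynamin strand would fall in that column.

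The replicates were then compared gene by gene, as log2 of the CPM of replicate 2 divided by that of replicate 1. All 4 had at least 10 reads in each library. None of the 4 genes was over 1.5-fold apart, where 36 of the 333 genes with at least 10 reads in both libraries were (10.8%). With 1 library against 1 there are no residual degrees of freedom and no p-value is given. Mir214 had a log2 ratio of −0.16 (95% interval −0.17 to −0.14), a 1.12-fold higher level in replicate 1. Mir199b had 0.27 (0.21 to 0.33), Mir199a-2 had 0.20 (0.06 to 0.35) and Mir199a-1 had 0.34 (−0.19 to 0.90). The intervals of Mir199b and Mir199a-2 lay above 0, that of Mir214 lay below it, and that of Mir199a-1 reached across it.

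The sizes of these ratios were close to the usual difference between the pools. The median size of the log2 ratio over the 333 genes was 0.20, and the middle of the distribution, between its quartiles, ran from −0.23 to 0.19. Mir214 lay inside this range, and the 3 Mir199 genes lay above its upper end. By counting interval only Mir199b lay wholly above it, and the intervals of Mir199a-2 and Mir199a-1 reached below it. The median log2 ratio was 0.24 over the 4 genes and −0.02 over all 333. The sum of the 4 genes, 16571 CPM in replicate 2 and 18085 CPM in replicate 1, had a log2 ratio of −0.13 (−0.14 to −0.11), which follows Mir214.

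**Figure D3:**
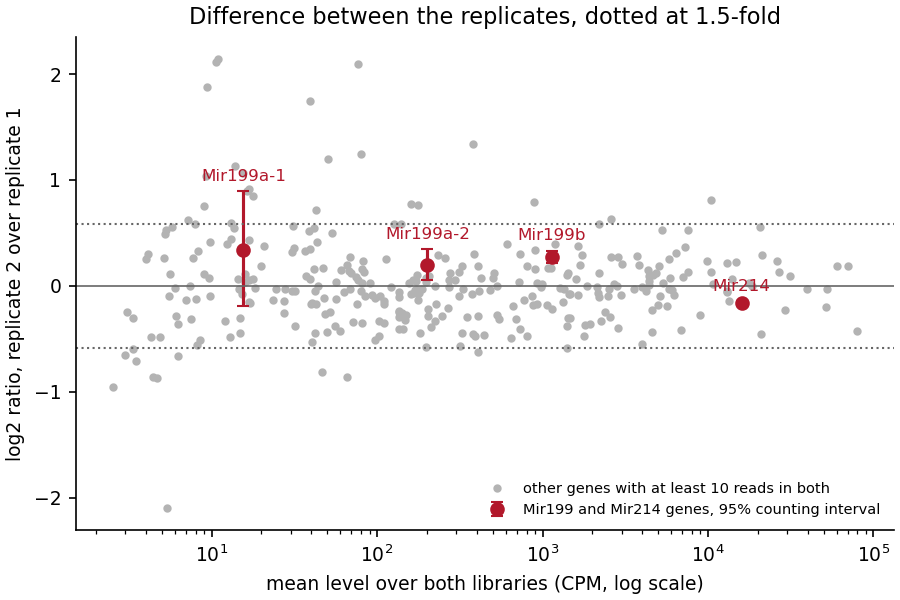
Log2 ratio of replicate 2 over replicate 1 against the mean level in CPM (log axis) for the 333 genes with at least 10 reads in both libraries, with the 4 genes in red and their 95% counting intervals. The dotted lines mark 1.5-fold, and all 4 red points lie between them, Mir214 at −0.16 and the Mir199 genes at 0.20 to 0.34.

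Ratios between the genes inside 1 library need no scaling, and they were set side by side for the pools. How far ratios of other gene pairs differ between these pools was not computed. The intervals therefore cannot show whether a difference is unusual. Mir214 and Mir199a-2 come from the same transcript, and Mir214 had 70.1 reads for each read of Mir199a-2 in replicate 2 (66.5 to 74.0), against 89.9 in replicate 1 (82.8 to 97.9). Mir214 over Mir199b was 12.1 in replicate 2 (11.8 to 12.4) and 16.3 in replicate 1 (15.8 to 16.9). In neither of these pairs did the counting intervals of the libraries overlap. Mir214 over Mir199a-1 was 868 in replicate 2 (721 to 1056) and 1229 in replicate 1 (905 to 1712), with overlapping intervals. As log2 of replicate 2 over replicate 1, this ratio differed by −0.50, against −0.36 for Mir199a-2 and −0.43 for Mir199b. Overlap thus depends on the reads of the pair and does not show that a proportion was kept. Reads of the Mir199 genes that mapped to several places are not in these ratios, so they are not ratios of the mature miRNAs.

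Within the Mir199 genes the proportions were alike in both pools. Mir199b over Mir199a-2 was 5.78 in replicate 2 (5.46 to 6.13) and 5.51 in replicate 1 (5.03 to 6.03). Mir199a-2 over Mir199a-1 was 12.4 in replicate 2 (10.2 to 15.2) and 13.7 in replicate 1 (9.94 to 19.2). For both pairs the intervals overlapped, although the loci lie on chromosomes 1, 2 and 9. The wide intervals of pairs with Mir199a-1 come with its 41 reads in replicate 1, so a modest difference would not be detectable at this depth.

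**Figure D4:**
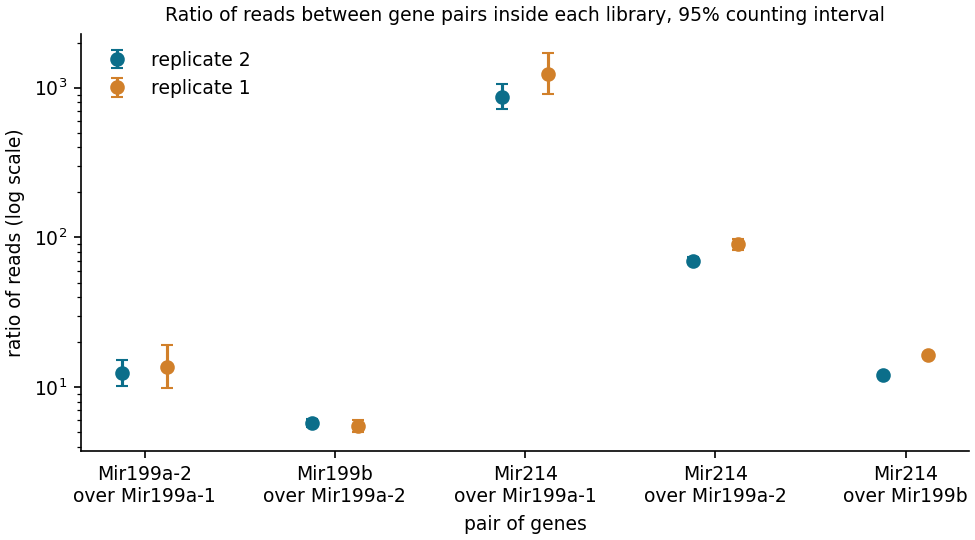
Ratio of reads between pairs of genes inside each library (log axis), replicate 2 left of replicate 1, with 95% counting intervals. Mir214 over each Mir199 gene is lower in replicate 2. The intervals do not overlap for Mir199a-2 and Mir199b, and overlap for Mir199a-1, which has few reads, and for the pairs of Mir199 genes.

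The summed level of the 4 genes was set beside lists for other tissues of the face in the same libraries. It reached 16571 CPM in replicate 2, against 18085 CPM in replicate 1, with a mean of 17328 ± 1070 CPM (SD, n = 2). Mir199 reads that mapped to several places are missing from this sum. All comparisons of list sums therefore hold only for reads placed at a single locus. In bulk tissue fewer cells of a type and less RNA per cell cannot be told apart, and the label mesenchymal cannot be tested here because no cell types were separated. The epithelial list of 7 genes, with the Mir200 family that keeps cells in sheets and the skin miRNA Mir203, was far above. The 4 genes reached 0.129 of the epithelial sum in replicate 2 and 0.119 in replicate 1. Mir203 alone had 430680 of the 820684 epithelial reads in replicate 2 and 270779 of 454320 in replicate 1. Mir200a, Mir200b, Mir200c and Mir141 each lay below Mir214 in both libraries, and Mir203, Mir205 and Mir429 above it.

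Other lists of connective and vessel tissue stood close to the 4 genes in reads placed at 1 locus. Their sum was 1.15 times that of the cartilage genes Mir140 and Mir455 in replicate 2 and 1.18 times in replicate 1. Against Mir143 and Mir145a of smooth muscle the ratio was 0.909 in replicate 2 and 1.01 in replicate 1, so these sums lay close together and changed places between the pools. The smooth muscle sum was nearly all Mir143, with 114827 of 116418 reads in replicate 2 and 52566 of 53429 in replicate 1. Against Mir126a of endothelium the ratio was 0.583 in replicate 2 and 0.749 in replicate 1. The 4 genes exceeded the striated muscle list 2.78-fold in replicate 2 and 2.28-fold in replicate 1. That sum was nearly all Mir206, a miRNA of skeletal muscle, with 37647 of 38104 reads in replicate 2 and 23495 of 23735 in replicate 1. Of the 6 genes of the list 5 were counted, 2 had at least 10 reads in each library, and the other 3 had at most 3 reads in each. Reads mapped to several places are not in these counts, and how many came from this list is not recorded. A low count here therefore does not show that a miRNA is absent.

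Mir224 and Mir452, a pair linked to neural crest, the cells that give rise to most facial mesenchyme, were much lower. Mir224 had 347 CPM in replicate 2 and 304 CPM in replicate 1. Mir452 had 52.8 CPM in replicate 2, against 32.1 CPM in replicate 1. With 337 reads in replicate 2 and 96 in replicate 1, Mir452 was over 1.5-fold apart, at a log2 ratio of 0.72 (0.39 to 1.06). Of the 333 genes with at least 10 reads in both libraries, 10.8% were this far apart. Mir224 was not, at 0.19. The 4 genes had 41.4 times the sum of this pair in replicate 2 and 53.7 times in replicate 1.

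**Figure D5:**
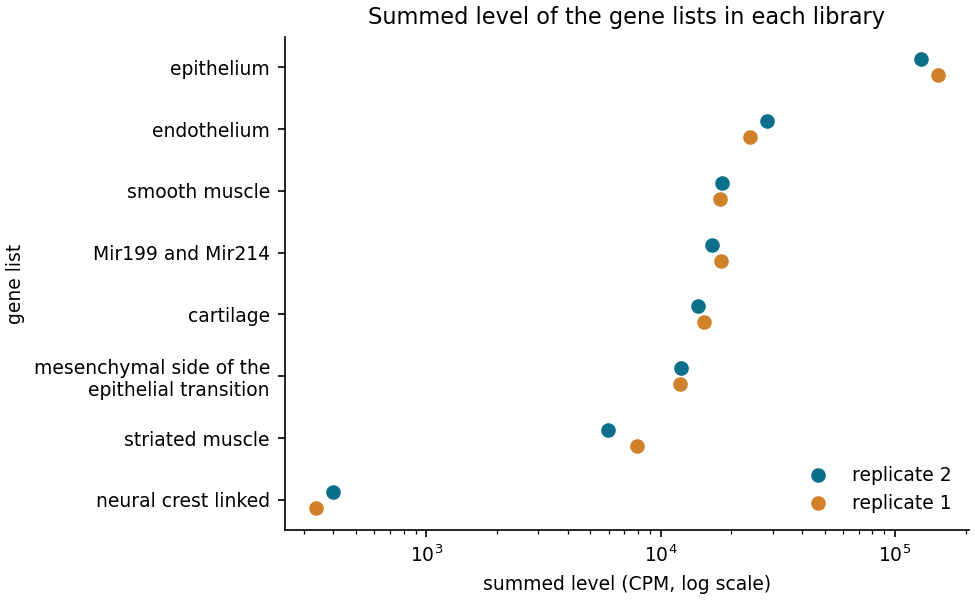
Summed level of each gene list in CPM (log axis), from reads placed at 1 locus, replicate 2 above replicate 1 for each list. The Mir199 and Mir214 genes, at 16571 CPM in replicate 2 and 18085 CPM in replicate 1, lie among the smooth muscle, endothelium and cartilage lists and well below the epithelium list.

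The epithelial to mesenchymal transition is the process in which sheet-forming cells become migratory, and 8 further miRNA genes linked to its mesenchymal side were listed. Of these, 7 were counted, again without reads mapped to several places, and 5 passed the minimum of 10 reads in each library. Among these 5 genes 0 were over 1.5-fold apart in either direction, beside the 10.8% over all genes. Mir10b, known for promoting invasion in human breast cancer cells, had 6075 CPM in replicate 2 and 5771 CPM in replicate 1. Mir21a, a widely expressed miRNA of growth and fibrosis, had 5782 CPM in replicate 2 and 5896 CPM in replicate 1. Mir221, Mir222 and Mir155 averaged 224 ± 35.7, 109 ± 7.51 and 69.0 ± 9.13 CPM (SD, n = 2). The median log2 ratio of the 5 genes was −0.03, and Mir214 by itself lay above each of them in both libraries.

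Genes at the closest levels were found by the summed difference of log2 CPM over the 2 libraries, which is a likeness of level and says nothing of shared control. Nearest to Mir214 were Mir143 (difference 0.31), Mir99b (0.38) and Mirlet7d (0.40). Mir143 had 17982 CPM in replicate 2 and 17587 CPM in replicate 1. Nearest to Mir199b were Mir125b-1 (0.10), Mir467c (0.13) and Mir676 (0.13). Mir185, Mir137 and Mirlet7c-1 were nearest to Mir199a-2, at 0.11 to 0.16, and Mir215, Mir325 and Mir150 to Mir199a-1, at 0.23 to 0.27.

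A search of all RefSeq mature miRNAs for the seeds of the 4 genes found 1 further gene. The miRNA miR-761, from Mir761 on chromosome 4, carries the seed of miR-214-3p.
miR-761: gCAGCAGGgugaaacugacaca
Mir761 had 0 reads in replicate 2 and 0 reads in replicate 1, so no read mapped to 1 place was counted for the other gene with this seed.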

How the data were processed

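MicroRNA libraries of 2 replicate pools were used. Per the files, the authors deposited unnormalized counts for each miRNA gene, on either strand, on the gene's strand and on the opposite strand, for mm10 and GENCODE M4 per the deposited file list. The sources used here name no aligner or counting program. Symbols and positions (1-based) came from GENCODE M21 on the same build, which named 1894 of 1973 genes. Mature and hairpin sequences came from RefSeq (GRCm38.p6).

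Counts on either strand were scaled with TMM factors from genes with at least 10 reads in both libraries (edgeR 4.0.16, R 4.3.3). Shares carry exact Clopper-Pearson intervals at 95%, and log2 ratios carry intervals from the exact binomial division of reads. The log2 interval was checked on libraries simulated with counting error alone, so that check does not cover differences between pools. DESeq2 1.42.0 size factors, total counts, other filters, the strand column and another denominator were alternatives. Nearest genes were the 3 with the smallest difference. The genes and lists were chosen with earlier results of these data known. Python 3.11.15, pandas 2.3.3, scipy 1.17.1 and matplotlib 3.10.9 were used.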

Additional observations from a re-analysis of the deposited data

How the results depend on the processing

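Of 54 values recomputed under 6 settings, 42 moved by less than the spread between replicates or the counting interval. That count does not measure robustness, because many of the values could hardly move. Mean levels barely respond to total counts or DESeq2 size factors, whose effects on the libraries balance out. The share of Mir214 could hardly change with the strand column or with hairpin length. None of the 20 log2 ratios changed sign, and 0 of the 4 genes were over 1.5-fold apart under the 3 other scalings or with reads on the strand of the gene. The share of all genes past this limit ran from 10.5% with total counts to 12% with DESeq2 size factors. With the strand column it was 11.5%. At such shares, 0 of 4 does not set these genes apart from the rest. With reads mapped to several places added to the denominator, the sum fell to 10660 CPM, Mir214 to 9828 CPM, Mir199b to 699 CPM, Mir199a-2 to 124 CPM, Mir199a-1 to 9.54 CPM and the share of reads to 1.07%. With Mir203, the gene with most reads, taken out of the library totals, the 4 genes summed to 18833 CPM, Mir214 stood at 17363 CPM and the log2 ratio of the sum was −0.17. DESeq2 size factors gave −0.10 for that ratio. The log2 ratio of Mir214 was −0.13 with DESeq2 size factors and −0.21 with Mir203 taken out. Both lay outside its counting interval of −0.17 to −0.14. Leaving out 1 replicate gave 15093 to 16852 CPM for Mir214. The share of all genes over 1.5-fold apart was 46.6% with no filter and 4.45% with at least 100 reads in both libraries, which leaves out Mir199a-1, and 3.6% were over 2-fold apart. No paired analysis was possible because there is 1 group. Depth limits Mir199a-1 most, with 41 reads in replicate 1.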
